A study of Homo sapiens with 32 samples.

Results

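The 8 genes described here, ACAT2, HMGCS1, MVK, PMVK, MVD, IDI1, FDPS and GGPS1, encode enzymes that turn acetyl-CoA into farnesyl and geranylgeranyl diphosphate. They were chosen by name from 22610 entries of a gene expression table, and each matched 1 entry. RNA-Seq was carried out in SK-N-BE(2), an established human neuroblastoma cell line, treated with 20 μM cannabidiol (CBD, a plant cannabinoid, dissolved in ethanol) or with vehicle, which was ethanol at 0.1%. Each treatment was sampled at 3, 6, 12 and 24 h with 4 replicates, giving 32 samples in 8 groups, and all of them are the same line, so vehicle differed from CBD by the drug alone as far as the labels say. No untreated or 0 h sample was analysed here, so movement over time is counted from 3 h. This is 1 line grown in plastic dishes, and no source states that the replicates came from separate stocks of cells, so p-values measure the spread between these samples, which may be technical.

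The mevalonate pathway runs in the cytosol, on the endoplasmic reticulum and in peroxisomes. It condenses acetyl-CoA units into mevalonate, phosphorylates and decarboxylates mevalonate to the 5-carbon building block isopentenyl diphosphate, and joins such blocks into farnesyl and geranylgeranyl diphosphate. Farnesyl diphosphate is the branch point between sterols, through squalene, and non-sterol products such as prenylated proteins, ubiquinone and dolichol, and many genes of the pathway are known targets of the SREBP transcription factors, which respond to low sterol in the endoplasmic reticulum.

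Of the 8 genes, 7 (all but ACAT2) matched an entry in a RefSeq promoter table of build GRCh38.p14. The 250 bases upstream of the start site are shown for 4 genes that rose in CBD and for PMVK, which did not, so that their upstream letters can be set beside their values. Capitals mark every match to CCAAT or GGGCGG on either strand, so that ATTGG and CCGCCC are the reverse-strand forms. The windows are on chr5:43313413-43313662 (minus strand) for HMGCS1, chr12:109573544-109573793 (plus) for MVK, chr16:88663092-88663341 (minus) for MVD, chr1:155308616-155308865 (plus) for FDPS and chr1:154936720-154936969 (minus) for PMVK.
HMGCS1: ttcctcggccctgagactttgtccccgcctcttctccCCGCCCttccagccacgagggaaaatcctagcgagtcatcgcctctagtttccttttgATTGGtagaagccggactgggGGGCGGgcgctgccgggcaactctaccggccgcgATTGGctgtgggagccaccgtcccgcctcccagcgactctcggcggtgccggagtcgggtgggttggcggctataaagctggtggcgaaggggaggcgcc
MVK: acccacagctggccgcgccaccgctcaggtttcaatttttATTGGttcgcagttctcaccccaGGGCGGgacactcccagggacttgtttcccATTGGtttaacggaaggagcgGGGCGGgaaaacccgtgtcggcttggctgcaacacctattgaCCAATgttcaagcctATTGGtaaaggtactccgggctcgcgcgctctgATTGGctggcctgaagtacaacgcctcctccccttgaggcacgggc
MVD: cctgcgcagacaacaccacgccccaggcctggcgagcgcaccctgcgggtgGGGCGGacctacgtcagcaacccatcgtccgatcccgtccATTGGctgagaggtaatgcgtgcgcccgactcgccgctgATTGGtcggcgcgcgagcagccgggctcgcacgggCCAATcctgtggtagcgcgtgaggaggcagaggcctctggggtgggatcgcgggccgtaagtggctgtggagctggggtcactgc
FDPS: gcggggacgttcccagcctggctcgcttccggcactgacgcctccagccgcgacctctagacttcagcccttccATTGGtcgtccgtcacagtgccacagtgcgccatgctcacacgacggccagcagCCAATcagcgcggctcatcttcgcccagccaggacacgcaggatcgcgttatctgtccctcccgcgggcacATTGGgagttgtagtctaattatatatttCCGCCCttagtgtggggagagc
PMVK: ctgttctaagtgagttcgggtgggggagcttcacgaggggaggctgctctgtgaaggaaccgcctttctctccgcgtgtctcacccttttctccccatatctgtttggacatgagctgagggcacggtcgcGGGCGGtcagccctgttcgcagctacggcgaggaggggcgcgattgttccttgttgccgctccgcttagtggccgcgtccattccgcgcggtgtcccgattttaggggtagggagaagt
Other windows of genes that rose are not shown. CCAAT was found 2 times in the HMGCS1 window, 5 times in that of MVK, 3 times in those of MVD and FDPS and 0 times in that of PMVK. Among the 11 windows of the other 6 genes, 4 also held none (the second of HMGCS1, 1 of 3 of IDI1 and 2 of 3 of GGPS1). A window without CCAAT was thus not particular to PMVK. For those windows of IDI1 and GGPS1, the bases after the start site were not found in a GENCODE transcript of the gene. PMVK, which had 1 window, was the only one of the 7 genes with no CCAAT in any window. No match to CCAAT and GGGCGG overlapped another in these 5 windows. Of 35116 upstream windows of the same length in the table, 32.0% held CCAAT and 42.6% held GGGCGG. A core of the sterol regulatory element, TCACNCCAC, was in 0.883% of all windows and in none of the 12 windows of the 7 genes, which says only that these letters are not in these windows. These matches are a description of sequence, not of binding.

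The values are FPKM, fragments scaled to transcript length and to the number of mapped reads, so levels can be compared between genes. FPKM do not record depth. From the steps between low values of 1414 entries, relative depth was 0.786 to 1.21 times the median of the samples, with a median of 1.02 in vehicle and 0.950 in CBD. One short RNA entry, MIR4461, held 32.5% to 38.2% of the summed FPKM of a sample. No pair of columns was identical, and the lowest Spearman rho between samples was 0.936 over the 12621 genes tested. Markers of neuroblastoma were abundant and those of other cells near 0 or low. Mean FPKM was 1762 for MYCN, 404 for PHOX2A and 498 for HAND2, against 0.0090 for the blood marker PTPRC, 0.061 for the liver marker ALB, 0.00016 for the keratinocyte marker KRT5 and 1.5 for COL1A1 of fibroblasts. At 24 h 1 of 9 neuroblastoma markers was called higher in CBD (MYCN, 2257 FPKM against 1554 in vehicle), against 20.8% of all genes. Another 4 were called lower, against 21.3% of all genes, the widest being DBH (3.96 against 13.0) and CHGA (362 against 686). The part of these shifts in the results below was not tested. In bulk RNA, fewer cells of a type and less RNA per cell cannot be told apart.

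In vehicle at 3 h, FDPS, which makes farnesyl diphosphate, was the most abundant of the 8 transcripts at 173.0 FPKM ± 3.48 (SD, n = 4). HMGCS1, which makes HMG-CoA, followed at 80.7 ± 1.1, ACAT2, the cytosolic thiolase that opens the pathway, at 74.1 ± 2.37, and IDI1, the isomerase of isopentenyl diphosphate, at 56.6 ± 1.01. PMVK and MVD, the second kinase and the decarboxylase, stood at 38.5 ± 2.83 and 27.4 ± 2.36. MVK, the first kinase, and GGPS1, which makes geranylgeranyl diphosphate, were lowest at 20.6 ± 1.21 and 20.5 ± 0.780, and their samples overlapped. This order changed in CBD at 1 place: MVD lay below PMVK at 3 h without overlap, overlapped it at 6 h (41.3 ± 1.89 against 40.4 ± 1.41) and lay above it at 12 h (60.3 ± 2.14 against 37.8 ± 0.402) and 24 h (54.7 ± 6.06 against 31.6 ± 3.87) without overlap. At 24 h in CBD the samples of IDI1 and MVD overlapped, as did those of PMVK and MVK and of MVK and GGPS1. In vehicle GGPS1 lay above MVK without overlap at 12 h (21.4 ± 0.408 against 19.7 ± 0.746) and 24 h (21.5 ± 0.490 against 16.5 ± 0.566).

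**Figure D1:**
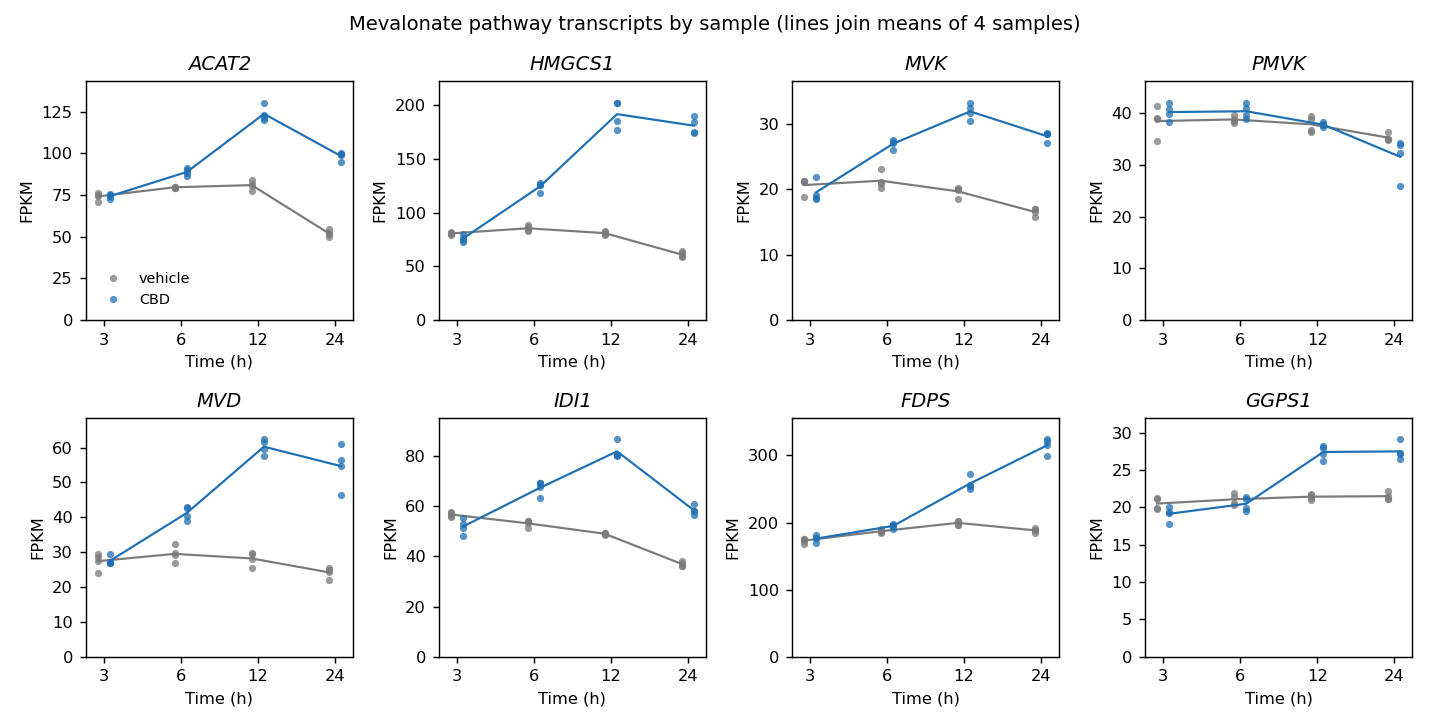
FPKM of the 8 genes in each sample (points) against time in h, with lines joining the means of the 4 samples of vehicle (grey) and CBD (blue); each y axis starts at 0. The treatments overlap or nearly so at 3 h for each gene, the blue and grey points separate by 12 h for 7 genes, and PMVK stays between 25.9 and 42.0 FPKM throughout.

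CBD was compared with vehicle at each time to ask when and how strongly the drug changed each step. None of the 8 genes was called at 3 h, where limma gave 3 of them, all lower in CBD, an unadjusted p under 0.05 (HMGCS1, IDI1 and GGPS1). The share of all genes under that unadjusted threshold was not counted, here or below. Of the 8 genes, 5 were higher in CBD at 6 h, and 7 were higher at 12 and at 24 h. With single times fitted alone and replicate number as a block, 0 of the 5 calls at 6 h stayed. That of GGPS1 at 12 h was lost too, all at unchanged differences. Such fits called 3 of all 12621 genes at 6 h and 267 at 12 h. The model of all 8 groups called 1288 and 2533. A call is an adjusted p under 0.01 from limma on log2(FPKM + 1), adjusted by Benjamini-Hochberg over all 12621 genes, and differences below are on that scale, which slightly understates a ratio of FPKM. Over all genes 2.46% were called in either direction at 3 h, and 4.07%, 8.85% and 20.8% were called higher at 6, 12 and 24 h. The median difference of the 8 genes was -0.04, 0.24, 0.64 and 0.73 at the 4 times, while that of all genes tested was between -0.0048 and 0.0066. In 5, 7 and 7 of the 8 genes every CBD sample lay above every vehicle sample at 6, 12 and 24 h, a pattern that 8.46%, 13.4% and 25.1% of all genes shared.

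The opening enzymes, ACAT2 and HMGCS1, were called higher in CBD from 6 h on, with larger differences at 12 and again at 24 h. At 6 h ACAT2 differed by less (0.16) than the later steps MVD (0.47), IDI1 (0.33) and MVK (0.33). HMGCS1 was 79.3, 81.2, 81.8 and 80.2 FPKM in the 4 vehicle samples at 3 h and 73.1, 74.4, 76.5 and 79.9 in CBD. At 6 h vehicle stood at 83.5, 82.5, 87.1 and 88.9 and CBD at 127.8, 118.4, 125.7 and 126.1. The ranges met at 3 h and were far apart from 6 h on. At 12 h vehicle was 83.0, 81.8, 80.2 and 78.8 and CBD 202.1, 185.7, 176.7 and 202.3. At 24 h vehicle was 58.5, 59.3, 64.1 and 62.2 and CBD 174.7, 184.1, 174.6 and 190.4, so that the CBD mean was 2.97 times the vehicle mean. The log2 differences were -0.09, 0.54, 1.23 and 1.55 (SE 0.040; adjusted p = 0.188, 1.1e-10, 1.94e-18 and 1.11e-20), the widest of the 8 genes at 6, 12 and 24 h.

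ACAT2 was nearly the same in both treatments at 3 h, at 76.5, 70.9, 75.1 and 74.1 FPKM in vehicle and 72.7, 75.1, 74.1 and 75.4 in CBD. At 24 h it was 49.8, 52.2, 54.7 and 51.8 in vehicle and 94.9, 99.9, 99.8 and 98.9 in CBD. The CBD samples at 24 h were thus above both 3 h groups, and the vehicle samples below both. The differences at 3, 6, 12 and 24 h were 0.0042, 0.16, 0.61 and 0.90 (SE 0.029; adjusted p = 0.964, 0.000316, 5.87e-15 and 6.85e-19).

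The middle steps, from mevalonate to isopentenyl diphosphate, did not move as one: MVK and MVD rose in CBD and PMVK, which acts between them, did not. MVK was 15.7, 16.9, 16.5 and 17.0 FPKM in vehicle at 24 h and 28.4, 28.6, 28.4 and 27.0 in CBD. Its differences from vehicle were -0.08, 0.33, 0.67 and 0.73 (SE 0.045; adjusted p = 0.334, 7.67e-06, 9.35e-12 and 4.55e-13). MVD was 24.9, 25.6, 24.3 and 22.1 in vehicle at 24 h and 54.7, 46.5, 61.1 and 56.3 in CBD. All 4 CBD samples exceeded all vehicle samples for both genes, although the CBD samples of MVD were spread widely at that time. The differences of MVD were 0.0087, 0.47, 1.07 and 1.14 (SE 0.069; adjusted p = 0.971, 1.68e-05, 3.39e-12 and 2.86e-13). Vehicle replicate 4 was the lowest of its group for MVD at each of the 4 times.

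PMVK, which phosphorylates mevalonate phosphate, was not called against vehicle at any time. It was 41.4, 38.9, 39.0 and 34.6 FPKM in vehicle at 3 h and 42.0, 38.3, 39.8 and 40.9 in CBD. At 24 h it was 35.1, 36.3, 35.01 and 34.8 in vehicle and 32.2, 25.9, 34.2 and 33.9 in CBD. At 24 h each CBD sample lay below each vehicle sample, as in 25.9% of all genes, by a margin that was small except in CBD replicate 2. Its differences were 0.06, 0.06, -0.0020 and -0.16 (SE 0.057), with 95% intervals of -0.12 to 0.11 at 12 h and -0.28 to -0.05 at 24 h, and adjusted p = 0.532, 0.534, 0.993 and 0.0169. Without CBD 24 h replicate 2 the 24 h difference was -0.08 (adjusted p = 0.131), whereas median-ratio scaling (-0.19) and the loss of CBD 24 h replicate 3 (-0.20) or 4 (-0.20) brought it under the threshold.

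IDI1, which interconverts isopentenyl and dimethylallyl diphosphate, was the one member whose CBD samples all lay below vehicle at 3 h. It was 55.6, 55.9, 57.3 and 57.6 FPKM in vehicle and 48.2, 51.1, 52.8 and 55.2 in CBD, a pattern that 4.36% of all genes shared. The difference of -0.13 (SE 0.034) had an adjusted p of 0.0226 and was not called. It passed the threshold under quantile normalization (adjusted p = 0.00693), without CBD 3 h replicate 4 (0.00566) and with a replicate block over all groups (0.00981). At 24 h IDI1 was 36.2, 36.04, 37.5 and 38.1 in vehicle and 57.9, 56.2, 58.1 and 60.8 in CBD. The direction had turned by 6 h: the differences at 6, 12 and 24 h were 0.33, 0.73 and 0.64 (adjusted p = 4.85e-08, 3.83e-15 and 1.68e-14).

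The prenyl transferases at the end of the route separated later. FDPS was 186.0, 190.7, 184.5 and 186.9 FPKM in vehicle at 6 h and 196.0, 198.3, 195.0 and 190.5 in CBD. At 12 h it was 196.6, 201.7, 203.0 and 196.7 in vehicle and 272.8, 255.8, 254.1 and 250.5 in CBD. The ranges still met at 6 h and were apart at 12 h. At 24 h vehicle was 184.7, 191.7, 188.2 and 188.8 and CBD 299.1, 323.7, 316.1 and 321.3. Its differences were 0.02, 0.06, 0.37 and 0.74 (SE 0.026; adjusted p = 0.606, 0.105, 1.31e-11 and 2.96e-18).

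GGPS1 was 20.3, 20.6, 21.4 and 22.0 FPKM in vehicle at 6 h and 21.4, 19.6, 19.9 and 21.2 in CBD. At 12 h it was 20.9, 21.3, 21.8 and 21.7 in vehicle and 28.3, 27.95, 27.1 and 26.3 in CBD, and at 24 h 21.1, 21.2, 22.2 and 21.6 against 27.2, 29.1, 26.5 and 27.1. The separation at 12 h was still there at 24 h and had not grown. Its differences were -0.09, -0.04, 0.34 and 0.34 (SE 0.036; adjusted p = 0.103, 0.478, 3.53e-08 and 9.76e-09).

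**Figure D2:**
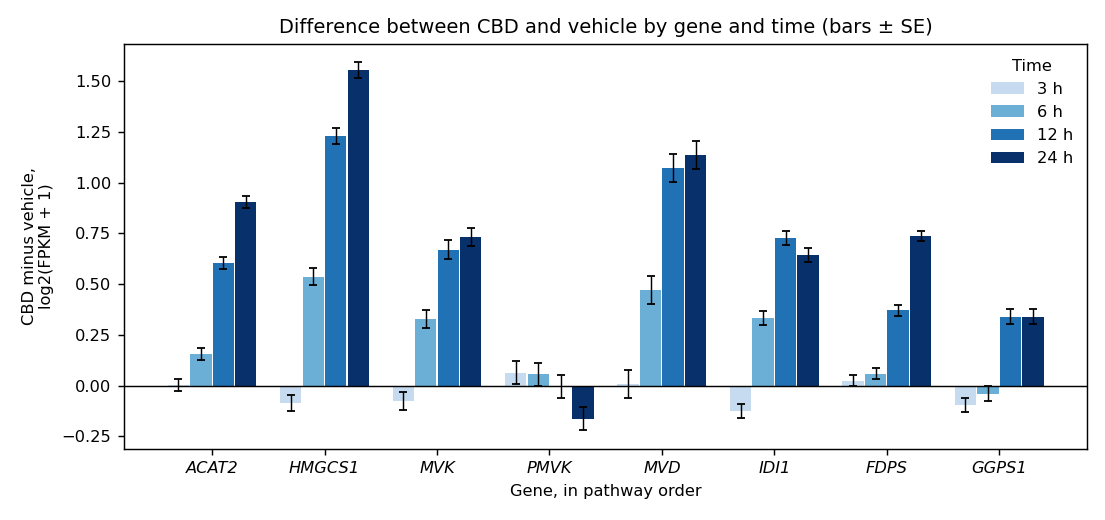
CBD minus vehicle on the log2(FPKM + 1) scale for the 8 genes in pathway order, with 1 bar for each time and the SE from the model as the error bar. HMGCS1 reaches 1.55 at 24 h, FDPS and GGPS1 have bars near 0 at 3 and 6 h, and the PMVK bar at 24 h is at -0.16.

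The model's interaction contrasts tested how the CBD effect itself changed between times. From 3 to 6 h it grew for 4 genes (HMGCS1 0.62, MVK 0.40, MVD 0.46, IDI1 0.46), against 0.705% of all genes. ACAT2 (0.15, adjusted p = 0.0261) was called under quantile normalization (0.18) and at a threshold of 0.05. The MVD call there was lost without vehicle 3 h replicate 1 (0.44) or 2 (0.43), vehicle 6 h replicate 4 (0.42), CBD 3 h replicate 2 (0.45) or 3 (0.45) or CBD 6 h replicate 2 (0.45) or 3 (0.44). From 6 to 12 h it grew for 7 genes, all but PMVK, by 0.31 for FDPS to 0.69 for HMGCS1, against 1.43% of all genes. From 12 to 24 h it grew for ACAT2 (0.30, SE 0.041), HMGCS1 (0.32, SE 0.056) and FDPS (0.37, SE 0.036), against 4.69%, and was not called for MVK (0.06), MVD (0.07), IDI1 (-0.08), GGPS1 (-0.00011) or PMVK (-0.16). From 3 to 24 h it grew for 7 genes, by 0.44 for GGPS1 to 1.64 for HMGCS1, against 12.9%, and changed by -0.23 for PMVK (adjusted p = 0.0253, called at -0.27 without CBD 24 h replicate 3).

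A difference between treatments can come from either side, so movement in vehicle was followed apart from movement in CBD. In vehicle few changes of members were called in the steps up to 12 h. The span from 3 to 12 h was not tested. Over it the vehicle mean moved to 0.864 times its 3 h value for IDI1 and 1.15 times for FDPS. From 3 to 6 h FDPS alone was called, higher by 0.11 (SE 0.026, adjusted p = 0.00315), against 6.26% of all genes called higher, and that call was lost under median-ratio scaling (0.09) and quantile normalization (0.07) and without vehicle 3 h replicate 2 (0.11) or 4 (0.10) or vehicle 6 h replicate 2 (0.10). From 6 to 12 h no member was called by limma (4.87% of all genes in either direction). In that step 3 genes had an unadjusted p under 0.05, IDI1 (-0.12), MVK (-0.11) and FDPS (0.09), with the share of all genes not counted.

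From 12 to 24 h vehicle fell in 5 genes, against 23.5% of all genes called lower. ACAT2 went from 84.1, 81.6, 80.7 and 77.3 FPKM to 49.8, 52.2, 54.7 and 51.8, a difference of -0.63 (SE 0.029, adjusted p = 5.82e-14). The groups were far apart, and no other member fell as much in that step. HMGCS1 and IDI1 fell by 0.40 each and MVK by 0.24. FDPS fell by 0.08 (adjusted p = 0.00883), and its direction turned under quantile normalization (0.0053). That call was also lost with no filter on low FPKM (adjusted p = 0.0112) and without vehicle 12 h replicate 1 (-0.09), 2 (-0.08) or 3 (-0.07) or vehicle 24 h replicate 1 (-0.07), 3 (-0.08) or 4 (-0.08). MVD stood at -0.21 (adjusted p = 0.0131) and was called under median-ratio scaling (-0.22), with a replicate block (adjusted p = 0.00792) and without vehicle 12 h replicate 4 (-0.26). PMVK stood at -0.10 and GGPS1 at 0.0041.

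In CBD 6 genes rose from 3 to 6 h, against 6.08% of all genes, and 7 rose from 6 to 12 h, against 11.7%. HMGCS1 rose by 0.71 and then 0.62 (SE 0.040), MVD by 0.57 and 0.54 (SE 0.069) and MVK by 0.45 and 0.23 (SE 0.045). The steps last 3 and 6 h, and their sizes were not tested against each other. ACAT2 rose by 0.25 and 0.47 (SE 0.029), FDPS by 0.15 and 0.40 (SE 0.026) and IDI1 by 0.37 and 0.28 (SE 0.034). GGPS1, at 0.09 from 3 to 6 h (adjusted p = 0.0623), rose by 0.40 from 6 to 12 h (adjusted p = 3.88e-09). PMVK was at 0.0055 and -0.09 in these steps.

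From 12 to 24 h the CBD samples parted ways. FDPS rose by 0.29 (adjusted p = 3.95e-10), the one member called higher, against 23.2% of all genes. Called lower were 4 genes, against 28.8% of all genes: IDI1 by -0.48 (SE 0.034), ACAT2 by -0.33 (SE 0.029), PMVK by -0.26 (SE 0.057) and MVK by -0.18 (SE 0.045). The MVK call was lost under quantile normalization (-0.11, adjusted p = 0.0323), and the PMVK value was -0.17 (adjusted p = 0.000846) without CBD 24 h replicate 2. HMGCS1 (-0.08, adjusted p = 0.078), MVD (-0.14, adjusted p = 0.0734) and GGPS1 (0.0040, adjusted p = 0.937) were not called. The value of MVD was -0.07 without CBD 24 h replicate 2.

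**Figure D3:**
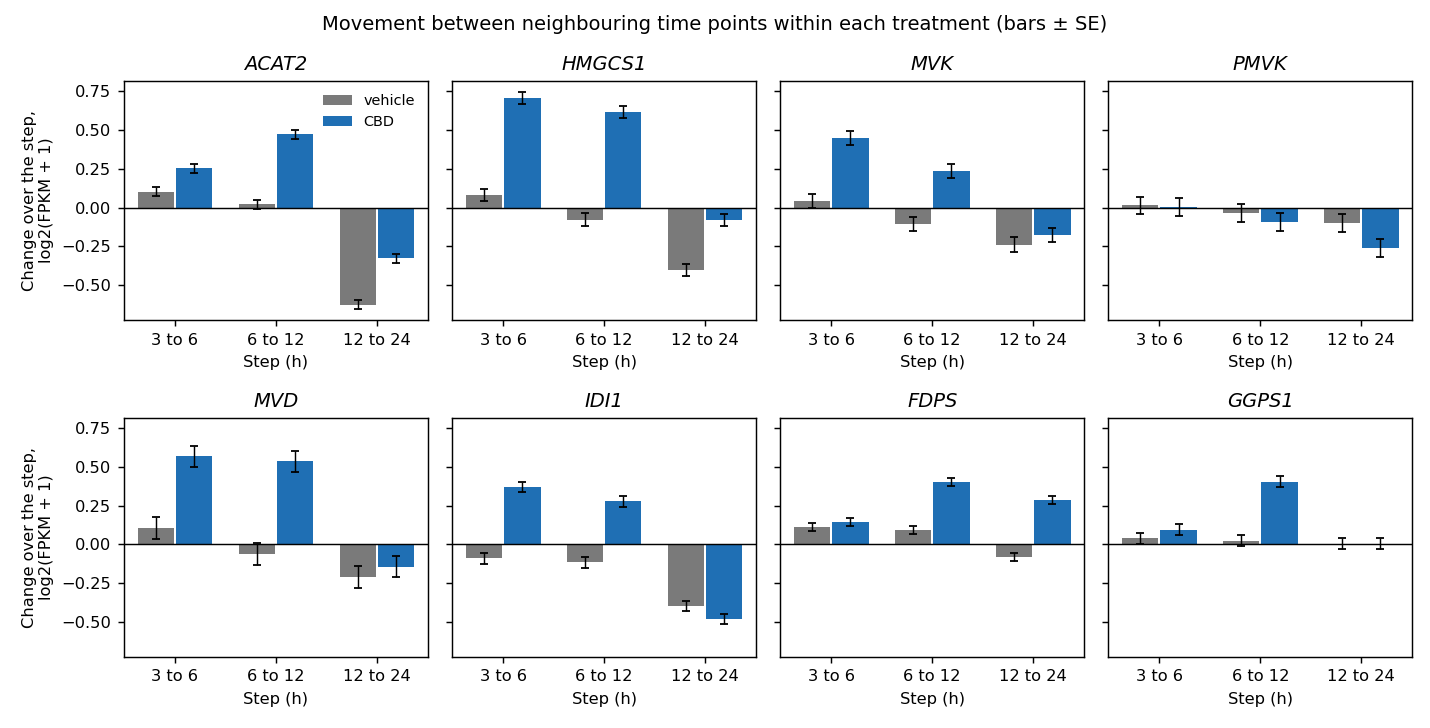
Change on the log2(FPKM + 1) scale over each step between neighbouring times within vehicle (grey) and CBD (blue), with the SE from the model as the error bar and a shared y axis. From 3 to 12 h the large bars are those of CBD, and from 12 to 24 h ACAT2 falls by 0.63 in vehicle and 0.33 in CBD while FDPS rises by 0.29 in CBD.

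Over the whole course the gap at 24 h was made up differently from gene to gene. Between 3 and 24 h vehicle fell in ACAT2 (-0.50), HMGCS1 (-0.40), MVK (-0.30) and IDI1 (-0.60), against 31.1% of all genes called lower, and rose in FDPS (0.12), against 26.6% called higher. Over the same interval CBD rose in 7 genes, against 32.1%, and fell in PMVK (-0.35), against 35.7%. For IDI1 the rise in CBD was 0.17 (SE 0.034, adjusted p = 8.94e-05; 0.31 under quantile normalization) beside a fall in vehicle of 0.60. For ACAT2 the values were 0.40 in CBD and -0.50 in vehicle. In both genes the value for vehicle was the larger in size, although the 2 sizes were not tested against each other. Over the alternative settings with all samples kept, ACAT2 ran from 0.34 to 0.53 in CBD and from -0.53 to -0.42 in vehicle. The order of the sizes is therefore uncertain for ACAT2.

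For the other 6 genes the larger value in size was that of CBD. HMGCS1 moved by 1.24 in CBD and -0.40 in vehicle, and MVK by 0.50 and -0.30. PMVK, the one gene below 0 in both, stood at -0.35 in CBD and -0.12 in vehicle (adjusted p = 0.0677). MVD moved by 0.96 in CBD and by -0.17 in vehicle (adjusted p = 0.0334, called at -0.23 without vehicle 3 h replicate 4). FDPS moved by 0.84 in CBD and 0.12 in vehicle, and GGPS1 by 0.50 in CBD and 0.07 in vehicle (adjusted p = 0.107, called at 0.12 under quantile normalization), so that for FDPS the vehicle movement was in the same direction as that of CBD.

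Pearson correlation between members over the 32 samples, which fall into 8 groups and share libraries, is given as a description. HMGCS1 and MVD had the highest r, 0.97, followed by MVK with MVD (0.95) and with HMGCS1 (0.95). FDPS had r of 0.91 with GGPS1, 0.85 with HMGCS1, 0.84 with MVD and 0.43 with IDI1, and GGPS1 had 0.81 with HMGCS1 and 0.47 with IDI1. PMVK had r from -0.64 with GGPS1 to 0.16 with IDI1. Among all other genes tested, the profiles most like the mean standardised profile of the 8 members were those of CYP51A1 (r = 0.99), SQLE (0.98), FDFT1 (0.96), RAB33A (0.96) and TMEM97 (0.95).

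Genes upstream, downstream and beside the pathway were set against the members by lists. Of 3 genes that supply cytosolic acetyl-CoA, 3 were higher at 12 and 24 h, against 8.85% and 20.8% of all genes. Their median differences were 0.22 and 0.27. ACSS2, which makes acetyl-CoA from acetate, was higher by 0.26, 1.02 and 1.36 at 6, 12 and 24 h (SE 0.038), and ACLY, which makes it from citrate, by 0.20 and 0.19 at 12 and 24 h (SE 0.021). Of 13 genes from squalene to cholesterol, 10, 13 and 11 were higher at 6, 12 and 24 h, against 4.07%, 8.85% and 20.8% of all genes, with median differences of 0.20, 0.62 and 0.61. At 3 h 2 were lower (CYP51A1 -0.13 and SC5D -0.16), against 1.28% of all genes. At 24 h MSMO1 was highest (1.06), with FDFT1 at 0.97, DHCR7 at 0.85, LSS at 0.83, CYP51A1 at 0.79, SQLE at 0.62, HSD17B7 at 0.61, SC5D and EBP at 0.53 and NSDHL at 0.42, and LBR, which also has a structural role in the nuclear envelope, was at -0.05 (adjusted p = 0.0623).

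A list held 14 genes that use farnesyl and geranylgeranyl diphosphate outside sterols. None was called higher by limma at 6 h, where 1 gene (RCE1, at 0.15) had an unadjusted p under 0.05 in that direction. At 12 and at 24 h, where 8.85% and 20.8% of all genes were called higher, 1 was, RABGGTB, a subunit of the transferase that prenylates Rab proteins, at 0.17 and 0.24 (SE 0.030). Called lower were 1, 1 and 4 of them at 6, 12 and 24 h, against 6.13%, 11.2% and 21.3% of all genes. FNTB, the beta subunit of protein farnesyltransferase, was at -0.42, -0.25 and -0.73 (SE 0.066) at these times, with a mean of 3.47 FPKM over all samples. Of its annotated exon bases, 44.02% are shared with the read-through gene CHURC1-FNTB and 21.8% lie opposite MAX, so its values are uncertain. The median of the 14 was 0.04, -0.0088 and 0.02 at 6, 12 and 24 h.

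Relatives of ACAT2 and IDI1 in other compartments or tissues were also measured. ACAT1, the mitochondrial thiolase, was higher only at 24 h among the 4 times (0.17, SE 0.032, adjusted p = 5.09e-05), against 0.90 for the cytosolic ACAT2. IDI2, a relative of IDI1, was at -0.01 at 24 h (adjusted p = 0.84).

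**Figure D4:**
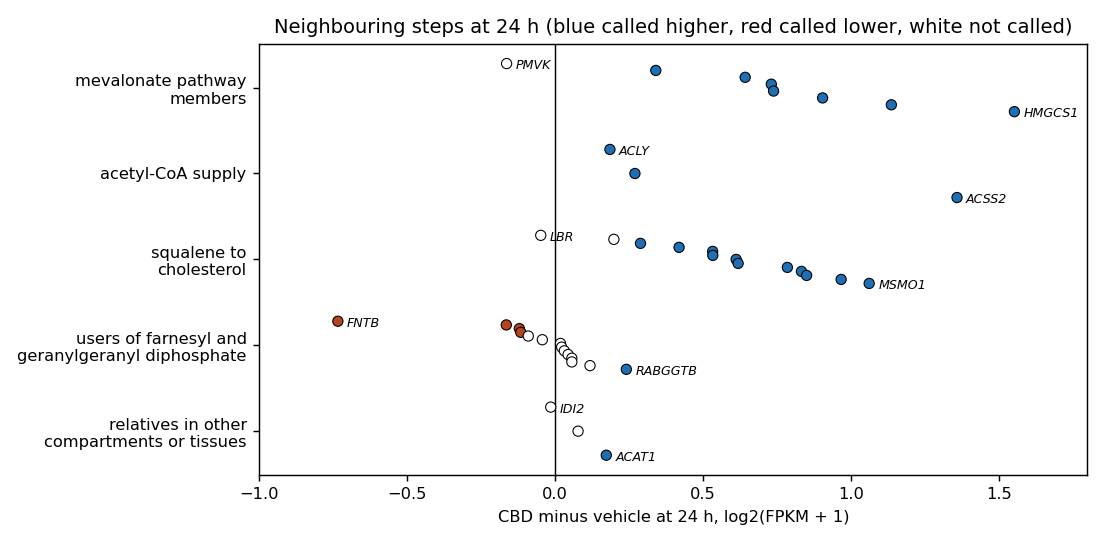
CBD minus vehicle at 24 h on the log2(FPKM + 1) scale for the 8 members and the genes of 4 lists, with 1 point for each gene tested, filled blue where called higher, red where called lower and white where not called. The members reach from -0.16 (PMVK) to 1.55 (HMGCS1), the genes from squalene to cholesterol from -0.05 to 1.06, and most users of the diphosphates lie near 0.

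The places of the genes bear on how cleanly they were counted. In GENCODE on GRCh37 (hg19, the build of the files), ACAT2 lies on chr6:160183077-160200144, HMGCS1 on chr5:43287572-43313614, MVK on chr12:110011060-110035930, PMVK on chr1:154897216-154909195, MVD on chr16:88718343-88729569, IDI1 on chr10:1085092-1095059, FDPS on chr1:155278539-155290457 and GGPS1 on chr1:235490665-235507847. FDPS shares 18.6% of its exon bases with RUSC1-AS1 on the opposite strand, and RUSC1-AS1 (mean 40.8 FPKM) was higher by 0.42 and 0.78 at 12 and 24 h (SE 0.056), close to the 0.37 and 0.74 of FDPS. The methods describe the run as first stranded but do not state whether the counting used strand, and without strand reads of this overlap cannot be told apart. ACAT2 shares 17.2% of its exon bases with the opposite gene TCP1 (mean 223.4 FPKM), which was not called between CBD and vehicle at any time and was at -0.01 at 24 h. TCP1 did fall from 12 to 24 h, by 0.24 in vehicle and by 0.29 in CBD (SE 0.025), the step in which ACAT2 fell by 0.63 and 0.33, and its part in the values of ACAT2 was not tested. MMAB, which is transcribed away from MVK on the opposite strand, was higher by 0.25 and 0.29 at 12 and 24 h (SE 0.031).

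SOD2 and ARID4B, which overlap ACAT2 and GGPS1 on the opposite strand, were not called between CBD and vehicle at any time, and SOD2 fell by 0.10 in vehicle from 12 to 24 h (SE 0.025). IDI2-AS1, opposite 15.0% of IDI1, had a mean of 0.93 FPKM and was not tested. An unnamed lncRNA lies opposite 37.7% of the exon bases of HMGCS1 and an unnamed coding gene along 37.3% of those of GGPS1 on the same strand, and both were not used here. Of all 50-base words of their annotated transcripts, a length close to that of the reads, 36.3% for HMGCS1 and 39.0% for GGPS1 also occur in transcripts of other genes on either strand, against 17.5% for ACAT2, 14.5% for IDI1, 13.4% for FDPS, 2.19% for MVK, 0.192% for MVD and 0 for PMVK.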

How the data were processed

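RNA from 32 samples was sequenced as single reads of about 50 bases from poly(A)-selected libraries; the labels and the study's methods name different library kits. The authors trimmed reads with Trimmomatic 0.36, dropped those under 35 bases, aligned the rest to hg19 with Tophat and computed FPKM with Cufflinks, and the deposited FPKM table was used as it stands. Reads were allowed to map to more than 1 place, which can share counts between similar genes. A second deposited table, of Cuffdiff fold changes and q-values, holds the authors' own comparisons and was not used.

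Groups were taken from the labels. The 12621 genes with a mean of at least 1 FPKM were transformed to log2(FPKM + 1) and fitted in limma 3.58.1 (R 4.3.3) as 8 group means, with eBayes and an intensity trend. The 16 comparisons were adjusted by Benjamini-Hochberg within each, with a threshold of 0.01. FPKM do not give depth, so no counting interval was computed. Members and lists were chosen with earlier results of these data known. From each pathway list the text names genes called with a log2 difference of at least 0.5 in size, the extremes at 24 h, and genes under 1 FPKM. Some genes of the lists are not reported here. The text also names genes overlapping a member and the 5 most like the members' mean profile. Alternatives were other added values, filters, scalings, eBayes settings, thresholds and models, replicate blocks, and each sample left out. Same-numbered samples of CBD and vehicle did not deviate together over all genes tested, so the numbers were not treated as pairs. That check cannot exclude a link in single genes. For IDI1 the order of replicates was the same in both treatments at 3 and 24 h, and differed at 6 and 12 h.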

Additional observations from a re-analysis of the deposited data

Results flagged for a closer look

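In 6 of 64 groups of 4 samples, 1 sample stood far from the other 3 by Dixon's test, which chance does in about 1 of 20 groups. For MVK these were vehicle 3 h replicate 4 at 18.82 FPKM (the others 21.13 to 21.33), vehicle 12 h replicate 4 at 18.57 (the others 19.95 to 20.19) and CBD 24 h replicate 4 at 27.01 (the others 28.38 to 28.58), each the lowest of its group. PMVK was 36.3 in vehicle 24 h replicate 2 (the others 34.83 to 35.05), MVD was 29.33 in CBD 3 h replicate 1 (the others 26.78 to 27.14) and IDI1 was 86.47 in CBD 12 h replicate 1 (the others 79.76 to 80.42), each the highest of its group.

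The CBD effect differed between 24 h and 3 h in limma's interaction contrast for 7 of the 8 genes. On the log2(FPKM + 1) scale the effect at 24 h minus that at 3 h was 1.639 for HMGCS1, 1.128 for MVD, 0.9003 for ACAT2, 0.8066 for MVK, 0.7694 for IDI1, 0.7139 for FDPS and 0.4353 for GGPS1.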

How the results depend on the processing

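Of 128 differences tested for the 8 genes, 77 were called, and 67 of these kept direction and call under every alternative run, among them 13 of the 19 calls between CBD and vehicle. The replicate block changed counts in the fits of single time points: with CBD and vehicle of the same number as a block, 0 of 5 genes stayed called at 6 h (differences unchanged at 0.16 to 0.54, adjusted p from 0.011 to 0.0319) and GGPS1 lost its call at 12 h (0.011). Of all 12621 genes, these single-time fits called 3 at 6 h and 267 at 12 h, in place of 1288 and 2533. Over all groups the replicate block gave 1 call in place of 0 at 3 h (IDI1, adjusted p = 0.00981). Over the genes tested, correlations of the 16 same-numbered pairs ran from -0.0757 to 0.0935. Those of same-numbered vehicle samples at different times ran from -0.0943 to 0.121 (3 of 24 over 0.1). Low correlations over all genes cannot exclude an effect of the replicate number on single genes. With the block over all groups, limma called 447 genes in place of 310 at 3 h and 5641 in place of 5314 at 24 h. The count called between CBD and vehicle at 3 h, 0, was also 1 under quantile normalization and at a threshold of 0.05, and 0 to 1 without single samples. For vehicle from 3 to 6 h the count of 1 became 0 under median-ratio scaling and quantile normalization, 2 at a threshold of 0.05, and 0 to 1 without single samples. For vehicle from 6 to 12 h, 0 became 2 at a threshold of 0.05. One called difference, FDPS in vehicle from 12 to 24 h, turned under quantile normalization (0.005343). The other reversals were of uncalled values near 0. With 5 added, the change of the GGPS1 effect from 12 to 24 h was 3.202e-05. Under median-ratio scaling PMVK was -0.01021 in vehicle and -0.01117 in CBD from 3 to 6 h, and GGPS1 -0.006893 in vehicle and -0.0339 in CBD from 12 to 24 h. Under quantile normalization ACAT2, MVD and FDPS at 3 h were -0.01889, -0.00982 and -0.033, PMVK at 12 h 0.01314, HMGCS1 in CBD from 12 to 24 h 0.02551, and the change of the effect 0.01384 for PMVK from 3 to 6 h and 0.01507 for GGPS1 from 12 to 24 h. Without single samples, ACAT2 at 3 h ran from -0.01678 to 0.01918, MVD at 3 h from -0.04876 to 0.04496, PMVK at 12 h from -0.02024 to 0.01699, PMVK from 3 to 6 h from -0.03412 to 0.04986 in vehicle and from -0.01713 to 0.02551 in CBD, GGPS1 from 12 to 24 h from -0.01002 to 0.01291 in vehicle and from -0.02246 to 0.02014 in CBD, and the change of the effect from -0.04433 to 0.03966 for PMVK from 3 to 6 h and from -0.02659 to 0.01601 for GGPS1 from 12 to 24 h. The cause of these shifts was not tested. Over all genes another scaling moved the share of calls that were higher, from 3 to 6 h in vehicle from 66.1% to 40.8% under median-ratio scaling and 49.1% under quantile normalization. In CBD it moved from 55.4% to 39.0% and 44.7% over that step. Under median-ratio scaling it moved from 57.6% to 39.0% for the change of the effect from 12 to 24 h, and under quantile normalization from 66.2% to 79.6% for vehicle from 6 to 12 h and from 33.6% to 44.7% for the change of the effect from 3 to 6 h. Depth is not recorded in FPKM, so its part in the precision of low genes was not tested.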
